A study of Mus musculus with 12 samples.

Results

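The genes here are p53, encoded by Trp53 in the mouse, its inhibitors Mdm2 and Mdm4, its relative Trp73 and genes listed as p53 targets. Whether each listed gene depends on p53 in these cells was not tested. The 33 members were chosen by symbol, and each matched 1 of the 54232 genes counted. RNA was sequenced from MMTV-NIC breast cancer cells in 12 libraries, 3 in each of 4 groups: AXL KO cells in 1% O2 (hypoxia), AXL KO cells in 21% O2 (normoxia), AXL WT cells in 1% O2 and AXL WT cells in 21% O2. All groups share the tumour model, in which the mouse mammary tumour virus promoter drives an activated Neu (ErbB2) and Cre recombinase from the same transcript in mammary epithelium. AXL belongs to the TAM receptor tyrosine kinases. The number of knockout clones, the time in hypoxia, the origin of the replicates and the mutational state of Trp53 are not given in the sources used here, so p-values reflect only how far these samples spread, possibly for technical reasons. Effects of AXL loss and of the history of a knockout line cannot be told apart here. Groups were taken from the sample titles, because in 6 samples the genotype tag contradicts the title.

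Axl matched the titles, with 1.72 to 3.47 CPM (depth-normalised counts, scaled by TMM) in the 6 AXL KO libraries and 455 to 1000.2 CPM in the 6 AXL WT libraries. Library totals were 45297267 to 58775422 gene counts, and 32 of the 33 members passed the filter on low counts, all but Trp73. The AXL WT hypoxia libraries stood apart from each other, with a biological coefficient of variation (BCV, the relative spread between libraries beyond counting error) of 0.402, against 0.074 in AXL KO hypoxia, 0.0895 in AXL KO normoxia and 0.0585 in AXL WT normoxia. Over the 32 members the highest library of a group exceeded the lowest by a median of 1.14-fold in AXL KO hypoxia, 1.15-fold in AXL KO normoxia, 1.61-fold in AXL WT hypoxia and 1.14-fold in AXL WT normoxia, so results that use AXL WT hypoxia rest on the least even libraries. For each gene the contrasts share an estimate of the spread over all 12 libraries. The AXL WT hypoxia libraries therefore also enter the errors of contrasts without that group. Some members not called in such contrasts were called when only the compared groups were fitted. The epithelial keratin genes Krt8 and Krt18 were abundant in every library (323 to 1159 CPM), while the basal keratin gene Krt5 had at most 2 counts in a group. Of the 6 epithelial markers tested, Epcam, Cdh1 and Krt14 were lower in AXL KO at both oxygen levels and none was higher, with medians of −1.65 in hypoxia and −1.05 in normoxia (log2 fold change). Epcam stood at 6.11 to 12.5 CPM in AXL KO and 20.6 to 104 CPM in AXL WT, and Cdh1 at 3.38 to 6.21 CPM in AXL KO and 9.73 to 47.4 CPM in AXL WT. Krt14 stood at 0.5 to 1.79 CPM in AXL KO and 31.6 to 137 CPM in AXL WT. The 7 markers summed to 2279 to 2378 CPM in AXL KO hypoxia, 2159 to 2446 CPM in AXL KO normoxia, 1000 to 4624 CPM in AXL WT hypoxia, with 3146 to 3236 CPM in AXL WT normoxia, and Erbb2 alone ran from 131 to 2407 CPM in AXL WT hypoxia. The part of these markers in the member results was not tested.

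p53 is a transcription factor that is held at a low level by the ubiquitin ligase MDM2, whose own gene it activates, so that p53 and MDM2 form a negative feedback loop. Stress that blocks MDM2, through DNA damage kinases or through the p19ARF protein of the Cdkn2a locus, lets p53 accumulate and bind paired decamer sites near genes for cell-cycle arrest, apoptosis, autophagy and DNA repair. In mammary tumours the pathway is often inactivated, and p53 is regulated mainly as a protein, which RNA-seq does not measure.

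Promoters were searched because the members were grouped by their listed link to p53. Of the 33 members, 25 matched the promoter table used, from RefSeq on GRCm38.p6, and the 250 bases before each of their 32 starts were scanned on both strands for the 10-base p53 consensus decamer, allowing no mismatch. A decamer was found in 8 of the 32 windows (25.0%), against 7.13% of 32851 promoter windows of all genes. The windows also differed in base content, with a median of 14 CG dinucleotides in member windows against 6 in all windows. The part of base content in these shares was not tested. The upstream Cdkn1a start held a full site, a pair of decamers at most 13 bases apart, which was present in 0.064% of all windows. The 5-letter sequence ACGTG, the core of the hypoxia response element, was found in 7 member windows (21.9%), against 16.6% of all windows, and the windows printed here hold no ACGTG. The windows of Cdkn1a (chr17:29090729-29090978, plus strand), Mdm2 (chr10:117710759-117711008, minus strand) and Trp53 (chr11:69580109-69580358, plus strand) are shown because these genes form the feedback loop and its best known output. Capitals mark the decamers, which start 73 and 51 bases before the Cdkn1a start, 186 before the Mdm2 start and 75 before the Trp53 start. The 10 bases directly after the Cdkn1a decamer at 51 miss the consensus at their first base only, and are therefore unmarked. A match describes letters in the window, not a bound site.
Cdkn1a: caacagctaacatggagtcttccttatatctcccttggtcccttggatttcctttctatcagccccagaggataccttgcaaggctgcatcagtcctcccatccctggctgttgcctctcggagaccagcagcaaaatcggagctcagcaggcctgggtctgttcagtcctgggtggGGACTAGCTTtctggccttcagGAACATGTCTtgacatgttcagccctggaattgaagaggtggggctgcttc
Mdm2: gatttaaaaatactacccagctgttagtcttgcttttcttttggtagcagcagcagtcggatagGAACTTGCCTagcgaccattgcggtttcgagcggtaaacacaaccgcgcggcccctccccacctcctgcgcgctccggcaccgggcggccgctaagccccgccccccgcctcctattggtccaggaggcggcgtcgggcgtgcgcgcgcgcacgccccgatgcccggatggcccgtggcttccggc
Trp53: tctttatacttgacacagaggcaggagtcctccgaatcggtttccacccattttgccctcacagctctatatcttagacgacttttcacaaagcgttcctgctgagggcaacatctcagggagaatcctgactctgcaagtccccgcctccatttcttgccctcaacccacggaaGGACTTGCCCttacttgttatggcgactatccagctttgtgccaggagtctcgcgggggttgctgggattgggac

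Most members were more abundant in AXL KO than in AXL WT cells under hypoxia. Of the 32 members tested, 19 were higher, 5 lower and 8 not called at an adjusted p under 0.05, or 75.0% called against 63.0% of all 16767 genes tested (29.9% higher and 33% lower). The members' median log2 fold change was 0.73, against −0.04 for all genes. In normoxia 17 members were higher, 5 lower and 10 not called in AXL KO, or 68.8% called against 59.7% of all genes (29.7% higher and 30.0% lower), with a median of 0.50 against −0.03. The same 11 members were higher in AXL KO at both oxygen levels (34.4%, against 19.8% of all genes): Apaf1, Bbc3, Ccng1, Cdkn1a, Dram1, Eda2r, Fas, Mdm4, Perp, Tnfrsf10b and Trp53inp2. Trp53, Ier3 and Plk3 were lower at both, 3 of 32 members (9.38%, against 19.9% of all genes). The AXL KO libraries did not overlap the AXL WT libraries for 23 members in hypoxia, against 62.6% of all genes, and for 28 in normoxia, against 79.7%. In these bulk samples a smaller share of cells expressing a gene and less RNA per cell cannot be told apart. Without AXL WT hypoxia replicates 2 and 3, 23 members were higher and 5 lower in hypoxia and 21 and 7 in normoxia, and with a voom weight for each group the counts were 15 and 5 in hypoxia and 21 and 7 in normoxia. Leaving out those replicates leaves 1 AXL WT hypoxia library, which is then assumed to vary like the other groups.

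Cdkn2a, which encodes the cell-cycle inhibitor p16INK4a and, in another reading frame, the MDM2 antagonist p19ARF, acts upstream of the loop and is not a member. It had no count in any of the 6 AXL KO libraries, whereas it had 33.1, 74.2 and 58.7 CPM under hypoxia in AXL WT and 11.5, 12.4 and 14 CPM under normoxia (ENSMUSG00000044303, chromosome 4, 89274471 to 89294653). With a floor of 3 counts over the group, it was at least 2410-fold lower in AXL KO in hypoxia and at least 722-fold lower in normoxia. Both proteins share this gene row, so their transcripts cannot be told apart.

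Trp53 (ENSMUSG00000059552, chromosome 11, 69580359 to 69591873) stood at 64.1, 63.8 and 65.4 CPM in AXL KO hypoxia and 116, 125 and 95.8 CPM in AXL KO normoxia. Trp53 had 87.8, 95.9 and 92.6 CPM in AXL WT hypoxia, with 176, 172 and 178 CPM in AXL WT normoxia. It was lowest in AXL KO hypoxia and highest in AXL WT normoxia, and no compared groups overlapped. Trp53 was lower in AXL KO in hypoxia (−0.52 ± 0.099, adjusted p = 0.00077; here and below, brackets hold the log2 fold change, its standard error and the adjusted p) and in normoxia (−0.64 ± 0.099, adjusted p = 0.000147). Mdm2, the ubiquitin ligase that targets p53 (ENSMUSG00000020184, chromosome 10, 117688875 to 117710758), stood at 323, 253 and 284 CPM in AXL KO hypoxia and 111, 101 and 96.9 CPM in AXL KO normoxia. Mdm2 had 168, 235 and 169 CPM in AXL WT hypoxia, with 92.1, 93.4 and 95.1 CPM in AXL WT normoxia. The hypoxia libraries of each genotype lay above its normoxia libraries, and AXL KO hypoxia was above AXL WT hypoxia. Mdm2 was higher in AXL KO than in AXL WT in hypoxia (0.59 ± 0.14, adjusted p = 0.00262), with no call in normoxia (0.14 ± 0.14, adjusted p = 0.396). Mdm4, an MDM2 relative that restrains the activation domain of p53, stood at 152, 117 and 126 CPM in AXL KO hypoxia and 114, 90.9 and 95 CPM in AXL KO normoxia. Mdm4 had 122, 75.2 and 95.2 CPM in AXL WT hypoxia, with 80.6, 68.1 and 66.8 CPM in AXL WT normoxia. AXL KO libraries overlapped AXL WT libraries in hypoxia and not in normoxia. Mdm4 was higher in AXL KO in hypoxia (0.44 ± 0.17, adjusted p = 0.0418) and in normoxia (0.48 ± 0.17, adjusted p = 0.0294). The Mdm4 call in hypoxia was lost without AXL KO hypoxia replicate 1 or 3, AXL KO normoxia replicate 3, AXL WT hypoxia replicate 2 or 3 or AXL WT normoxia replicate 1, 2 or 3 and in 7 of the other 9 alternatives (adjusted p up to 0.583). The call in normoxia was lost without AXL KO normoxia replicate 1 or AXL WT normoxia replicate 2 or 3 and in 1 of the other 9 alternatives (adjusted p up to 0.305). Trp73, a p53 relative, had 3 counts over AXL KO hypoxia, 1 over AXL KO normoxia and 0 in AXL WT, too few to test.

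Per gene length, the Mdm2 level divided by the Trp53 level was 4.02, 3.15 and 3.45 in AXL KO hypoxia and 0.760, 0.639 and 0.805 in AXL KO normoxia, against 1.52, 1.95 and 1.45 in AXL WT hypoxia and 0.417, 0.432 and 0.425 in AXL WT normoxia. The 4 groups did not overlap in this ratio, which was higher in AXL KO than in AXL WT at each oxygen level and higher in hypoxia than in normoxia in each genotype. At 3 against 3 libraries an exact permutation test cannot go below p = 0.1, and none was run.

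**Figure D1:**
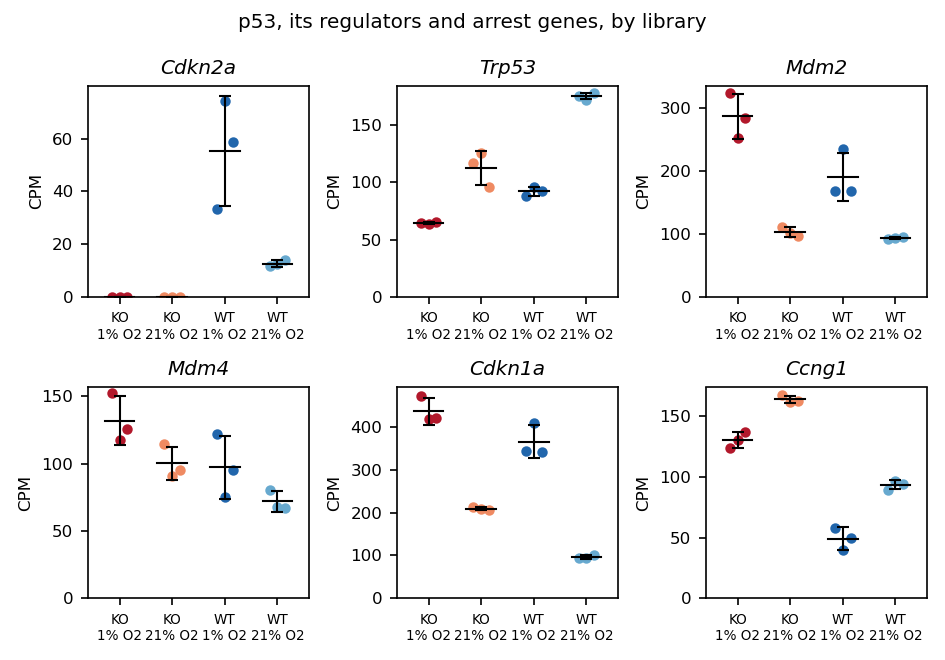
Levels of Cdkn2a, Trp53, Mdm2, Mdm4, Cdkn1a and Ccng1 in CPM (linear axis starting at 0), 1 point per library, for AXL KO in 1% O2, AXL KO in 21% O2, AXL WT in 1% O2 and AXL WT in 21% O2. Horizontal lines are means and bars the SD of 3 libraries. Trp53 is lowest in AXL KO in 1% O2 (63.8 to 65.4 CPM), where Mdm2 is highest (253 to 323 CPM).

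Of the 10 genes of cell-cycle arrest and growth control, 4 were higher and 4 lower in AXL KO in hypoxia (median log2 fold change 0.19), and 5 were higher and 2 lower in normoxia (median 0.50). Among all genes 29.9% were higher and 33% lower in hypoxia, and 29.7% and 30.0% in normoxia. Cdkn1a, which encodes the CDK inhibitor p21 (ENSMUSG00000023067, chromosome 17, 29090979 to 29100722), stood at 473, 418 and 419.7 CPM in AXL KO hypoxia and 214, 208 and 206 CPM in AXL KO normoxia. Cdkn1a had 345, 409.6 and 342 CPM in AXL WT hypoxia, with 95.1, 94.1 and 102 CPM in AXL WT normoxia. The genotypes did not overlap at either oxygen level, and the gap was wider in normoxia. Cdkn1a was higher in AXL KO in normoxia (1.11 ± 0.094, adjusted p = 9.57e-07) and, by a smaller amount, in hypoxia (0.26 ± 0.092, adjusted p = 0.0286), where the call was lost without AXL KO hypoxia replicate 1, AXL WT hypoxia replicate 3 or AXL WT normoxia replicate 1, 2 or 3 and in 5 of the other 9 alternatives (adjusted p up to 0.314). Ccng1, cyclin G1, a p53 target that feeds back on MDM2, stood at 124, 131 and 137 CPM in AXL KO hypoxia and 168, 162 and 163 CPM in AXL KO normoxia. Ccng1 had 58.3, 39.9 and 49.6 CPM in AXL WT hypoxia, with 89.6, 97 and 94.5 CPM in AXL WT normoxia. Its AXL KO libraries lay above all AXL WT libraries, and it was higher in AXL KO in hypoxia (1.41 ± 0.12, adjusted p = 1.57e-06) and in normoxia (0.81 ± 0.12, adjusted p = 0.000105).

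Zmat3, a zinc-finger RNA-binding protein, stood at 124, 104 and 104 CPM in AXL KO hypoxia and 103, 83.7 and 85.9 CPM in AXL KO normoxia. Zmat3 had 38.6, 41 and 44.8 CPM in AXL WT hypoxia, with 80.2, 79.9 and 78.1 CPM in AXL WT normoxia. Its AXL WT hypoxia libraries lay below every other group. Zmat3 was higher in AXL KO in hypoxia (1.42 ± 0.11, adjusted p = 7.18e-07), with no call in normoxia (0.19 ± 0.11, adjusted p = 0.145), though the genotypes did not overlap there. In normoxia Zmat3 was called higher in AXL KO with a voom weight for each group and with the compared groups alone. Btg2, an antiproliferative gene, stood at 12.2, 15.2 and 13.3 CPM in AXL KO hypoxia and 26.7, 29.1 and 31.4 CPM in AXL KO normoxia. Btg2 had 10.8, 13 and 13.3 CPM in AXL WT hypoxia, with 8.72, 9.45 and 8.31 CPM in AXL WT normoxia. AXL KO normoxia lay above every other group, and the genotypes overlapped in hypoxia. Btg2 was higher in AXL KO in normoxia (1.72 ± 0.14, adjusted p = 5.5e-07), with no call in hypoxia (0.13 ± 0.13, adjusted p = 0.412).

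Plk2, a polo-like kinase induced by stress, stood at 19.4, 21.3 and 21.1 CPM in AXL KO hypoxia and 85.7, 76 and 75.8 CPM in AXL KO normoxia. Plk2 had 64.4, 133 and 55.5 CPM in AXL WT hypoxia, with 29.8, 26.3 and 30.8 CPM in AXL WT normoxia. Its AXL KO hypoxia libraries were the lowest and lay below AXL WT hypoxia, while AXL KO normoxia lay above AXL WT normoxia. Plk2 was lower in AXL KO in hypoxia (−2.03 ± 0.26, adjusted p = 4.02e-05) and higher in normoxia (1.45 ± 0.26, adjusted p = 0.000419). Gadd45a, a growth arrest and DNA damage gene whose library values are given because they were seen to follow Plk2, stood at 12, 9.76 and 10.3 CPM in AXL KO hypoxia and 129, 95.2 and 81.7 CPM in AXL KO normoxia. Gadd45a had 25.3, 39.6 and 12.2 CPM in AXL WT hypoxia, with 23.6, 20.8 and 29.4 CPM in AXL WT normoxia. Gadd45a too was lower in AXL KO in hypoxia (−1.27 ± 0.34, adjusted p = 0.00589) and higher in normoxia (2.05 ± 0.34, adjusted p = 0.000235), with no overlap of genotypes at either oxygen level. Call patterns of this kind, lower in AXL KO in hypoxia and higher in normoxia, were found for these 2 of 32 members and for 1.87% of all genes.

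Ier3, an immediate early survival gene, stood at 724, 703 and 735 CPM in AXL KO hypoxia and 87.6, 101 and 91.8 CPM in AXL KO normoxia. Ier3 had 1853, 1494 and 1935 CPM in AXL WT hypoxia, with 161, 155 and 177 CPM in AXL WT normoxia. It was far higher in hypoxia in both genotypes and lower in AXL KO than in AXL WT, in hypoxia (−1.29 ± 0.11, adjusted p = 1.2e-06) and in normoxia (−0.81 ± 0.11, adjusted p = 4.15e-05). Phlda3, which restrains AKT at the membrane, averaged 218 ± 17.7 CPM in AXL KO hypoxia and 96.4 ± 6.51 CPM in AXL KO normoxia. Phlda3 averaged 91.5 ± 24.2 CPM in AXL WT hypoxia, with 109.6 ± 7.46 CPM in AXL WT normoxia (SD, n = 3). It was higher in AXL KO in hypoxia (1.25 ± 0.17, adjusted p = 5.11e-05), with no call in normoxia (−0.19 ± 0.16, adjusted p = 0.35). In normoxia Phlda3 was called lower in AXL KO with a voom weight for each group and with the compared groups alone. Plk3, another polo-like kinase, averaged 53.3 ± 7.21 CPM in AXL KO hypoxia and 20.9 ± 0.574 CPM in AXL KO normoxia. Plk3 averaged 106 ± 39.7 CPM in AXL WT hypoxia, with 74.6 ± 11.6 CPM in AXL WT normoxia. It was lower in AXL KO in hypoxia (−0.99 ± 0.22, adjusted p = 0.00184) and in normoxia (−1.84 ± 0.22, adjusted p = 2.03e-05). Sfn, which encodes 14-3-3 sigma, had 0.631, 0.739 and 0.88 CPM in AXL KO hypoxia and 0.572, 0.431 and 0.468 CPM in AXL KO normoxia. Sfn had 0.199, 0.75 and 0.291 CPM in AXL WT hypoxia, with 0.441, 0.409 and 0.594 CPM in AXL WT normoxia. No contrast called it.

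Of the 14 genes of apoptosis and autophagy, 11 were higher, none lower and 3 not called in AXL KO in hypoxia, with a median log2 fold change of 1.44, and 9 were higher and 2 lower in normoxia, with a median of 1.08. The shares of all genes were 29.9% higher and 33% lower in hypoxia, and 29.7% higher and 30.0% lower in normoxia. Bbc3, which encodes the BH3-only protein PUMA (ENSMUSG00000002083, chromosome 7, 16308393 to 16318205), stood at 65.3, 60.5 and 64.5 CPM in AXL KO hypoxia and 49.8, 48.7 and 49 CPM in AXL KO normoxia. Bbc3 had 17, 9.75 and 10.4 CPM in AXL WT hypoxia, with 8.65, 8.15 and 9.45 CPM in AXL WT normoxia. All AXL KO libraries lay above all AXL WT libraries. Bbc3 was higher in AXL KO in hypoxia (2.36 ± 0.18, adjusted p = 6.43e-07) and in normoxia (2.49 ± 0.18, adjusted p = 3.4e-07). Pmaip1, which encodes the BH3-only protein NOXA, stood at 1.19, 0.448 and 0.792 CPM in AXL KO hypoxia and 0.286, 0.448 and 0.295 CPM in AXL KO normoxia. Pmaip1 had 0.11, 0.984 and 0.228 CPM in AXL WT hypoxia, with 0.0176, 0.112 and 0.0349 CPM in AXL WT normoxia. It was low in every group, and its libraries were the least even of all members in every group but AXL KO normoxia. Pmaip1 was higher in AXL KO in normoxia (2.62 ± 0.86, adjusted p = 0.0202), with no call in hypoxia (0.88 ± 0.66, adjusted p = 0.261). The normoxia call was lost without AXL KO normoxia replicate 2 or AXL WT normoxia replicate 1 or 3 (adjusted p up to 0.0704), and without AXL WT normoxia replicate 2 the log2 fold change was 3.62.

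Fas, the death receptor of FAS ligand (ENSMUSG00000024778, chromosome 19, 34290659 to 34327770), stood at 7.74, 10.3 and 10.8 CPM in AXL KO hypoxia and 16, 17.9 and 18 CPM in AXL KO normoxia. Fas had 2.72, 2.70 and 2.22 CPM in AXL WT hypoxia, with 2.01, 2.83 and 2.48 CPM in AXL WT normoxia. Both AXL KO groups lay above both AXL WT groups, and Fas was higher in hypoxia (1.92 ± 0.18, adjusted p = 3.54e-06) and in normoxia (2.83 ± 0.19, adjusted p = 1.3e-07). Eda2r, the ectodysplasin A2 receptor of the TNF receptor family (ENSMUSG00000034457, chromosome X, 97333840 to 97377216), stood at 29.7, 26.6 and 28.3 CPM in AXL KO hypoxia and 51, 34.7 and 38.4 CPM in AXL KO normoxia. Eda2r had 1.15, 3.98 and 2.20 CPM in AXL WT hypoxia, with 0.67, 0.484 and 0.663 CPM in AXL WT normoxia. It was close to absent in AXL WT normoxia, and every AXL KO library held more than any AXL WT library. Eda2r was higher in AXL KO in hypoxia (3.53 ± 0.35, adjusted p = 4.36e-06) and in normoxia (6.09 ± 0.40, adjusted p = 1.21e-07), 11.6-fold and 67.9-fold. The death receptor gene Tnfrsf10b averaged 24.6 ± 1.53 CPM in AXL KO hypoxia and 37.7 ± 0.858 CPM in AXL KO normoxia. Tnfrsf10b averaged 10.4 ± 1.59 CPM in AXL WT hypoxia, with 17.4 ± 0.79 CPM in AXL WT normoxia. It was higher in AXL KO in hypoxia (1.24 ± 0.12, adjusted p = 4.91e-06) and in normoxia (1.11 ± 0.12, adjusted p = 9.06e-06).

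Perp, a tetraspan membrane protein of desmosomes and a p53 death effector (ENSMUSG00000019851, chromosome 10, 18845020 to 18857073), stood at 1175, 1219.5 and 1223 CPM in AXL KO hypoxia and 359, 409 and 467 CPM in AXL KO normoxia. Perp had 115, 86.6 and 74.6 CPM in AXL WT hypoxia, with 108, 116 and 122 CPM in AXL WT normoxia. AXL KO hypoxia was above AXL KO normoxia, and both AXL KO groups were above both AXL WT groups, which overlapped each other. Perp was higher in AXL KO in hypoxia (3.71 ± 0.16, adjusted p = 4.96e-09) and in normoxia (1.83 ± 0.15, adjusted p = 7.66e-07), 13.1-fold and 3.56-fold. Dram1, a lysosomal membrane protein that links p53 to autophagy (ENSMUSG00000020057, chromosome 10, 88322804 to 88379080), stood at 22.8, 23.4 and 22.9 CPM in AXL KO hypoxia and 56.6, 49.4 and 52.5 CPM in AXL KO normoxia. Dram1 had 3.53, 4.38 and 2.66 CPM in AXL WT hypoxia, with 3.72, 3.68 and 3.95 CPM in AXL WT normoxia. Every AXL KO library exceeded every AXL WT library, and Dram1 was higher in hypoxia (2.71 ± 0.16, adjusted p = 7.08e-08) and in normoxia (3.80 ± 0.17, adjusted p = 4.77e-09). Apaf1, the apoptosome scaffold, averaged 67.3 ± 0.62 CPM in AXL KO hypoxia and 42.7 ± 1.92 CPM in AXL KO normoxia. Apaf1 averaged 30.5 ± 3.34 CPM in AXL WT hypoxia, with 20.6 ± 1.26 CPM in AXL WT normoxia. It was higher in AXL KO in hypoxia (1.14 ± 0.10, adjusted p = 2.2e-06) and in normoxia (1.05 ± 0.10, adjusted p = 3.34e-06).

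Higher levels in AXL KO hypoxia than in AXL WT hypoxia were also called for Ei24, an endoplasmic reticulum protein of autophagy (1.63 ± 0.25, adjusted p = 0.000148), Trp53inp1, a p53 cofactor in autophagy and apoptosis (1.90 ± 0.34, adjusted p = 0.000489), Fdxr, a mitochondrial electron transfer enzyme (0.90 ± 0.21, adjusted p = 0.00276), and Trp53inp2, an autophagy protein (0.40 ± 0.12, adjusted p = 0.0102). These 4 averaged 94.2 ± 0.946, 70.7 ± 9.31, 9.42 ± 0.772 and 142 ± 2.58 CPM in AXL KO hypoxia, in that order, against 30.3 ± 14.4, 19 ± 11, 5.03 ± 1.85 and 108 ± 16.4 CPM in AXL WT hypoxia. The Trp53inp2 call was lost with library size alone, with a voom weight for each group and with the compared groups alone. In normoxia Trp53inp2 was higher in AXL KO (0.91 ± 0.12, adjusted p = 3.31e-05), while Ei24 (0.30), Trp53inp1 (0.60) and Fdxr (0.10) were not called. Ei24 and Trp53inp1 nevertheless did not overlap between genotypes in normoxia. Both were called there with a voom weight for each group, with the compared groups alone and without AXL WT hypoxia replicate 1. With single libraries left out, their adjusted p went down to 0.04 and 0.0189. Pidd1, the scaffold of the PIDDosome (−1.31 ± 0.24, adjusted p = 0.000491), and Aen, an apoptosis nuclease (−0.46 ± 0.15, adjusted p = 0.0219), were lower in AXL KO in normoxia, and neither was called in hypoxia (0.35 and 0.02). The Aen call was lost without AXL KO normoxia replicate 2 or 3 or AXL WT normoxia replicate 1 or 3 (adjusted p up to 0.118).

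**Figure D2:**
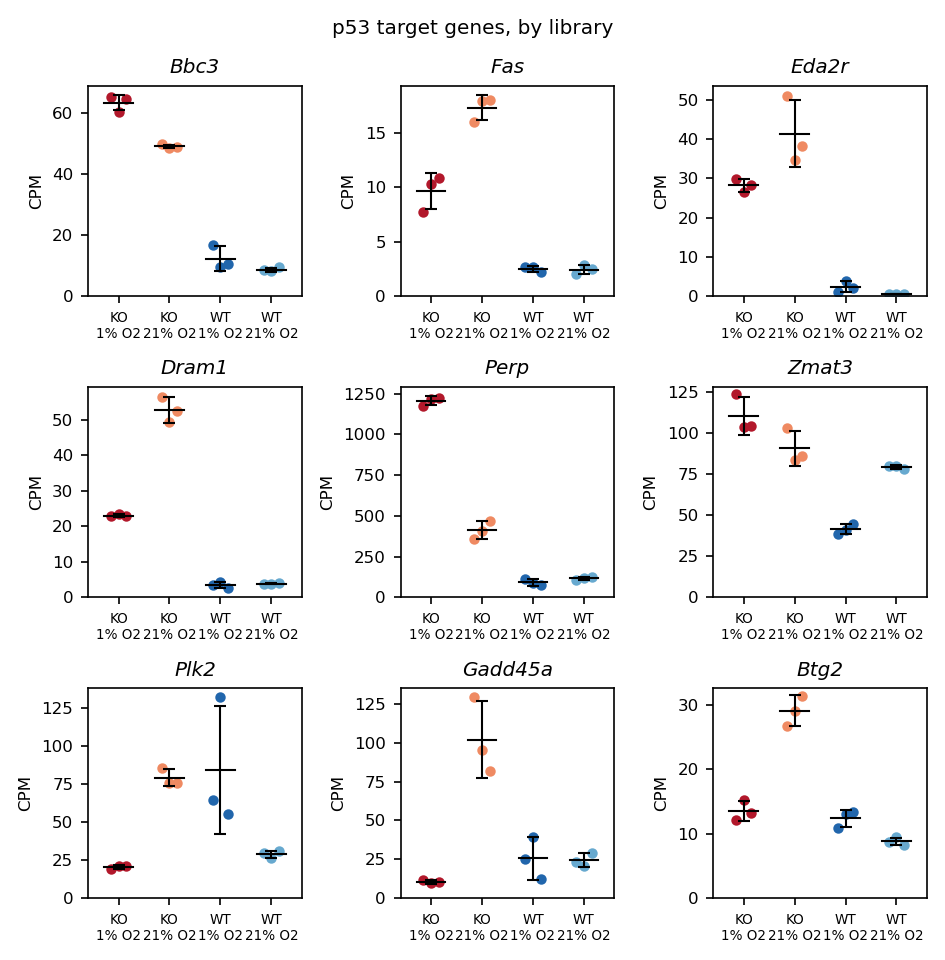
Levels of 9 target genes in CPM (linear axes starting at 0), 1 point per library, for AXL KO in 1% O2, AXL KO in 21% O2, AXL WT in 1% O2 and AXL WT in 21% O2, with means as lines and the SD of 3 libraries as bars. Bbc3, Fas, Eda2r, Dram1 and Perp are higher in all AXL KO libraries than in any AXL WT library, while Plk2 and Gadd45a are lower in AXL KO in 1% O2 and higher in 21% O2.

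Among the 5 genes of DNA repair and nucleotide supply, 2 were higher and none lower in AXL KO in hypoxia (median log2 fold change 0.53), and 2 were higher and none lower in normoxia (median 0.28), where library size alone gave 0 higher and 1 lower. The 40% called at each oxygen level was below the 63.0% of all genes in hypoxia and the 59.7% in normoxia. Xpc, the damage sensor of nucleotide excision repair, averaged 54.8 ± 5.40 CPM in AXL KO hypoxia and 24.8 ± 1.10 CPM in AXL KO normoxia. Xpc averaged 11.2 ± 7.97 CPM in AXL WT hypoxia, with 17.3 ± 0.244 CPM in AXL WT normoxia. It was higher in AXL KO in hypoxia (2.29 ± 0.37, adjusted p = 0.0002), and without AXL WT hypoxia replicate 1 the log2 fold change was 3.05. In normoxia Xpc was not called (0.53 ± 0.35, adjusted p = 0.215), though the genotypes did not overlap. It was called there with a voom weight for each group, with the compared groups alone and without AXL WT hypoxia replicate 1 (adjusted p = 0.00248 without that library). Ercc5, the excision repair endonuclease XPG, stood at 78.1, 75.1 and 78.1 CPM in AXL KO hypoxia and 37.5, 36.3 and 37.3 CPM in AXL KO normoxia. Ercc5 had 60.6, 91.3 and 71.6 CPM in AXL WT hypoxia, with 27.2, 27 and 26.7 CPM in AXL WT normoxia. The genotypes overlapped in hypoxia (0.05 ± 0.13, adjusted p = 0.744), and Ercc5 was higher in AXL KO in normoxia (0.46 ± 0.13, adjusted p = 0.00792), a call lost with library size alone (adjusted p = 0.163). Rrm2b, the p53-induced subunit of ribonucleotide reductase, averaged 19.3 ± 0.786 CPM in AXL KO hypoxia and 33.2 ± 5.04 CPM in AXL KO normoxia. Rrm2b averaged 13.3 ± 4.73 CPM in AXL WT hypoxia, with 34.8 ± 0.999 CPM in AXL WT normoxia. Its call in hypoxia (0.54 ± 0.21, adjusted p = 0.0448) was lost without AXL KO hypoxia replicate 1, 2 or 3, AXL KO normoxia replicate 2 or 3, AXL WT hypoxia replicate 2 or 3 or AXL WT normoxia replicate 1, 2 or 3 and in 6 of the other 9 alternatives (adjusted p up to 0.525). Polk, a translesion polymerase, averaged 56.9 ± 4.1 CPM in AXL KO hypoxia and 34.2 ± 1.68 CPM in AXL KO normoxia. Polk averaged 47.8 ± 6.98 CPM in AXL WT hypoxia, with 28.1 ± 0.183 CPM in AXL WT normoxia. Its call in normoxia (0.28 ± 0.11, adjusted p = 0.0472) was lost without AXL KO hypoxia replicate 2 or 3, AXL KO normoxia replicate 1, 2 or 3 or AXL WT normoxia replicate 1, 2 or 3 and in 4 of the other 9 alternatives (adjusted p up to 0.835). Ddb2, another excision repair sensor, averaged 4.90 ± 1.22 CPM in AXL KO hypoxia and 9.84 ± 0.211 CPM in AXL KO normoxia. Ddb2 averaged 3.38 ± 0.861 CPM in AXL WT hypoxia, with 13 ± 2.08 CPM in AXL WT normoxia. It was not called in either contrast (0.53 in hypoxia and −0.41 in normoxia), though the genotypes did not overlap in normoxia. A higher level in AXL KO in hypoxia was called without AXL KO hypoxia replicate 1 or AXL WT hypoxia replicate 3 (adjusted p down to 0.0136). A lower level in normoxia was called with library size alone, a voom weight for each group or the compared groups alone.

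**Figure D3:**
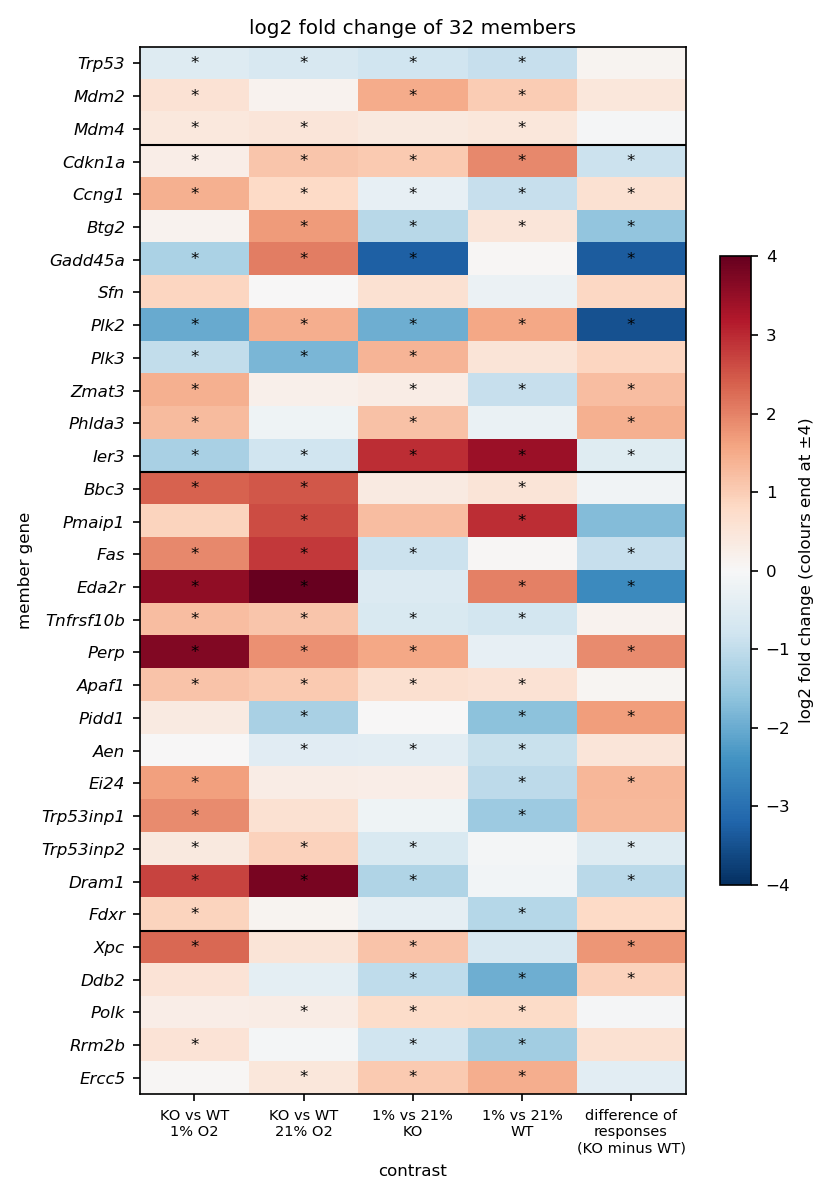
Log2 fold changes of the 32 members tested (rows, with black lines between p53 and its regulators, arrest and growth genes, apoptosis and autophagy genes, and repair genes) in the 5 contrasts (columns); red is higher and blue lower in the group named before "vs", colours end at ±4, and asterisks mark an adjusted p under 0.05. The apoptosis and autophagy block is red in the contrast of AXL KO with AXL WT in 1% O2, with 11 of 14 called higher and none lower.

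Low oxygen moved the members in both directions in both genotypes. In AXL KO, 11 members were higher, 12 lower and 9 not called in hypoxia against normoxia, or 71.9% called against 58.0% of all genes (27.3% higher and 30.6% lower), with a median log2 fold change of 0.15 against −0.03. In AXL WT, 12 were higher, 11 lower and 9 not called, or 71.9% called against 59.8% of all genes (29.2% higher and 30.7% lower), with a median of −0.10 against −0.02. Hypoxia and normoxia libraries did not overlap for 29 members in AXL KO, against 76.0% of all genes, and for 21 in AXL WT, against 61.4%. With library size alone the AXL WT split was 9 higher and 16 lower. The hypoxia check genes, 8 known targets of the hypoxia-inducible factors, summed to 7993 to 8307 CPM in AXL KO hypoxia and 1673 to 2294 CPM in AXL KO normoxia, and to 3991 to 5800 CPM in AXL WT hypoxia, with 641 to 701 CPM in AXL WT normoxia.

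Ier3, Cdkn1a, Ercc5, Mdm2, Polk and Apaf1 rose in hypoxia in both genotypes, 6 of 32 members (18.8%, against 17.3% of all genes). Ier3 rose in AXL KO (2.95 ± 0.11, adjusted p = 2.39e-08) and in AXL WT (3.42 ± 0.12, adjusted p = 5.15e-09). Cdkn1a rose in AXL KO (1.06 ± 0.093, adjusted p = 3.22e-06) and in AXL WT (1.91 ± 0.096, adjusted p = 5.47e-08). Mdm2 rose in AXL KO (1.48 ± 0.14, adjusted p = 5.13e-06) and in AXL WT (1.03 ± 0.14, adjusted p = 5.93e-05), and Ercc5 by 1.06 ± 0.13 and 1.47 ± 0.13 (adjusted p = 3.19e-05 and 2.57e-06). Polk rose in AXL KO (0.74 ± 0.11, adjusted p = 0.000187) and in AXL WT (0.77 ± 0.11, adjusted p = 0.000126), and Apaf1 in AXL KO (0.65 ± 0.10, adjusted p = 0.000205) and in AXL WT (0.57 ± 0.10, adjusted p = 0.000559). Trp53 itself fell in AXL KO (−0.81 ± 0.10, adjusted p = 3.8e-05) and in AXL WT (−0.93 ± 0.10, adjusted p = 1.12e-05). So did Ccng1, Tnfrsf10b, Rrm2b, Aen and Ddb2, which makes 6 members lower in hypoxia in both genotypes (18.8%, against 18.2% of all genes). Tnfrsf10b fell in AXL KO (−0.62 ± 0.12, adjusted p = 0.00106) and in AXL WT (−0.75 ± 0.12, adjusted p = 0.00028), and Rrm2b in AXL KO (−0.78 ± 0.21, adjusted p = 0.00786) and in AXL WT (−1.39 ± 0.22, adjusted p = 0.000189). Ddb2 fell in AXL KO (−1.0 ± 0.22, adjusted p = 0.00233) and in AXL WT (−1.94 ± 0.23, adjusted p = 2.38e-05). The Ccng1 response was −0.93 ± 0.12, adjusted p = 4.84e-05, in AXL WT, and that of Aen was −0.88 ± 0.15, adjusted p = 0.000443. The Ccng1 call in AXL KO (−0.33 ± 0.12, adjusted p = 0.0328) was lost without AXL KO hypoxia replicate 1, 2 or 3 or AXL KO normoxia replicate 1, 2 or 3 and in 1 of the other 9 alternatives (adjusted p up to 0.126). The Aen call in AXL KO (−0.41 ± 0.15, adjusted p = 0.0386) was lost without AXL KO hypoxia replicate 1, 2 or 3 or AXL KO normoxia replicate 1 or 2 and in 1 of the other 9 alternatives (adjusted p up to 0.184). The shares of members called in 1 direction in both genotypes were thus close to those of all genes.

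The genotypes differed in how members responded to low oxygen. The difference of responses, AXL KO minus AXL WT, was called for 17 of 32 members (53.1%, against 28.8% of all genes, 13.5% higher and 15.3% lower), 8 higher and 9 lower, with a median of 0.13 against −0.03. With library size alone the split was 12 higher and 7 lower. Plk2 fell in hypoxia in AXL KO (−1.94 ± 0.26, adjusted p = 7.21e-05) and rose in AXL WT (1.54 ± 0.26, adjusted p = 0.000325), a difference of −3.48 ± 0.37, adjusted p = 6.05e-05. Btg2 fell in AXL KO (−1.10 ± 0.13, adjusted p = 3.19e-05) and rose in AXL WT (0.49 ± 0.13, adjusted p = 0.00743), a difference of −1.59 ± 0.19, adjusted p = 0.000118. The Btg2 call in AXL WT was lost with library size alone, with a voom weight for each group and without AXL WT hypoxia replicates 2 and 3. Zmat3 fell in AXL WT (−0.94 ± 0.11, adjusted p = 2.33e-05), and in AXL KO it was slightly higher in hypoxia (0.28 ± 0.11, adjusted p = 0.0418), where the call was lost without AXL KO hypoxia replicate 1 or 3, AXL KO normoxia replicate 2 or 3 or AXL WT normoxia replicate 1, 2 or 3 and in 2 of the other 9 alternatives (adjusted p up to 0.615). The Zmat3 responses differed by 1.22 ± 0.16, adjusted p = 0.000198.

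Gadd45a fell in hypoxia in AXL KO (−3.26 ± 0.36, adjusted p = 1.58e-05), with no call in AXL WT (0.06 ± 0.33, adjusted p = 0.888), and the responses differed by −3.32 ± 0.47, adjusted p = 0.00044. Perp rose in AXL KO (1.55 ± 0.15, adjusted p = 5.97e-06), with no call in AXL WT (−0.33 ± 0.15, adjusted p = 0.0706), a difference of 1.88 ± 0.21, adjusted p = 7.74e-05. Eda2r rose in AXL WT (2.00 ± 0.37, adjusted p = 0.000681), with no call in AXL KO (−0.55 ± 0.30, adjusted p = 0.141), a difference of −2.55 ± 0.48, adjusted p = 0.00257. Its AXL KO libraries did not overlap between hypoxia (26.6 to 29.7 CPM) and normoxia (34.7 to 51 CPM). A fall in AXL KO was called with library size alone, a voom weight for each group or the compared groups alone. It was also called without AXL WT hypoxia replicate 1 or 2 (adjusted p down to 0.0157). The rise of Cdkn1a was smaller in AXL KO than in AXL WT, with a difference of −0.85 ± 0.13, adjusted p = 0.000695. Dram1 (−1.09 ± 0.22, adjusted p = 0.00348) and Fas (−0.91 ± 0.25, adjusted p = 0.019) had lower responses in AXL KO, where both fell in hypoxia (−1.20 and −0.85). The Fas difference was lost without AXL KO normoxia replicate 3 and in 1 of the other 8 alternatives (adjusted p up to 0.156).

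Phlda3 (1.44 ± 0.23, adjusted p = 0.00101), Pidd1 (1.66 ± 0.34, adjusted p = 0.004), Ei24 (1.33 ± 0.35, adjusted p = 0.014) and Xpc (1.77 ± 0.50, adjusted p = 0.0203) had higher responses in AXL KO. Phlda3 (1.18) and Xpc (1.14) rose in AXL KO, whereas Pidd1 (−1.64) and Ei24 (−1.05) fell in AXL WT. The Xpc rise was lost without AXL KO hypoxia replicate 1 or AXL KO normoxia replicate 2 and in 1 of the other 9 alternatives (adjusted p up to 0.0594). Its AXL KO libraries did not overlap between hypoxia (51.1 to 61.0 CPM) and normoxia (23.8 to 26.0 CPM). With single libraries left out, the adjusted p of this rise went down to 4.61e-06. The Xpc difference was lost without AXL KO hypoxia replicate 1, AXL KO normoxia replicate 2 or AXL WT normoxia replicate 1, 2 or 3 and in 1 of the other 8 alternatives (adjusted p up to 0.0718) and was 2.52 without AXL WT hypoxia replicate 1. Differences were also called for Ccng1 (0.60 ± 0.17, adjusted p = 0.0203), Ddb2 (0.94 ± 0.31, adjusted p = 0.0434), Ier3 (−0.48 ± 0.15, adjusted p = 0.0336) and Trp53inp2 (−0.51 ± 0.16, adjusted p = 0.0358). The Ccng1 call was lost without AXL KO hypoxia replicate 3, AXL KO normoxia replicate 2 or 3 or AXL WT normoxia replicate 1, 2 or 3 (adjusted p up to 0.0854). The Ddb2 call was lost without AXL KO hypoxia replicate 2 or 3, AXL KO normoxia replicate 1, 2 or 3, AXL WT hypoxia replicate 2 or AXL WT normoxia replicate 1, 2 or 3 and in 3 of the other 8 alternatives (adjusted p up to 0.204). The Ier3 call was lost without AXL KO hypoxia replicate 1, 2 or 3, AXL KO normoxia replicate 2 or 3, AXL WT hypoxia replicate 3 or AXL WT normoxia replicate 2 and in 2 of the other 8 alternatives (adjusted p up to 0.108). The Trp53inp2 call was lost without AXL KO hypoxia replicate 1, 2 or 3, AXL KO normoxia replicate 1, 2 or 3, AXL WT hypoxia replicate 3 or AXL WT normoxia replicate 3 and in 4 of the other 8 alternatives (adjusted p up to 0.115).

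Several members were called in hypoxia in 1 genotype without a called difference between genotypes. Bbc3 rose in AXL WT (0.50 ± 0.18, adjusted p = 0.0286; AXL KO 0.37 ± 0.17; difference −0.13 ± 0.25, adjusted p = 0.734), a rise lost without AXL WT hypoxia replicate 1 or AXL WT normoxia replicate 1 or 2 and in 4 of the other 9 alternatives (adjusted p up to 0.335). Pmaip1 rose in AXL WT (2.96 ± 0.86, adjusted p = 0.0108), by 3.97 without AXL WT normoxia replicate 2 and, with an adjusted p = 0.0807, by 1.63 without AXL WT hypoxia replicate 2. The call was also lost with a voom weight for each group and without AXL WT hypoxia replicates 2 and 3 (adjusted p up to 0.409). Its responses were not called different (−1.73 ± 1.09, adjusted p = 0.261). Mdm4 rose in AXL WT (0.44 ± 0.17, adjusted p = 0.0429), a rise lost without AXL KO hypoxia replicate 2 or 3, AXL KO normoxia replicate 1, 2 or 3, AXL WT hypoxia replicate 1 or 3 or AXL WT normoxia replicate 2 or 3 and in 4 of the other 9 alternatives (adjusted p up to 0.503), and the difference was −0.04 ± 0.24, adjusted p = 0.929. Rises of Bbc3, Pmaip1 and Mdm4 in AXL KO were called under some alternatives. For each gene these included a voom weight for each group, the compared groups alone and leaving out AXL WT hypoxia replicate 1 or 2. With single libraries left out, the adjusted p of Bbc3, Pmaip1 and Mdm4 went down to 0.00108, 0.0307 and 0.0139. The Mdm4 rise was also called with DESeq2 and with a replicate block. Plk3 rose in AXL KO (1.35 ± 0.22, adjusted p = 0.000282), with a difference of 0.85 ± 0.30, adjusted p = 0.0566. Its AXL WT response was 0.50 ± 0.21, adjusted p = 0.0611, and a rise was called there with RLE scaling, the stricter filter or DESeq2. That rise was also called without AXL WT normoxia replicate 3 or AXL WT hypoxia replicate 2 or 3 (adjusted p down to 0.0207). Trp53inp1 fell in AXL WT (−1.47 ± 0.34, adjusted p = 0.00276), with a difference of 1.30 ± 0.47, adjusted p = 0.0573. Fdxr fell there too (−1.15 ± 0.21, adjusted p = 0.000609), with a difference of 0.80 ± 0.29, adjusted p = 0.061. In AXL KO neither was called (−0.17 and −0.35). A fall of Fdxr in AXL KO was called with library size alone, a voom weight for each group or the compared groups alone. It was also called without AXL WT hypoxia replicate 1 (adjusted p = 0.0149). The differences of Plk3, Trp53inp1 and Fdxr were called with library size alone, with DESeq2, with a voom weight for each group and without AXL WT hypoxia replicate 1 (adjusted p without that library 0.000125, 0.000525 and 0.000136). The differences of the remaining members, none called, were Mdm2 0.45 ± 0.19, Trp53 0.12 ± 0.14, Ercc5 −0.41 ± 0.18, Polk −0.03 ± 0.16, Apaf1 0.09 ± 0.14, Tnfrsf10b 0.13 ± 0.17, Rrm2b 0.61 ± 0.30, Aen 0.47 ± 0.22 and Sfn 0.84 ± 0.58. Without AXL WT hypoxia replicate 2, the differences of Mdm2 (adjusted p = 0.00587) and Sfn (0.0158) were called. Those of Ercc5 (0.00467), Rrm2b (0.00645) and Aen (0.0198) were called without AXL WT hypoxia replicate 1. The Mdm2 difference was also called with library size alone. A p that misses the threshold does not show that the responses are equal.

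**Figure D4:**
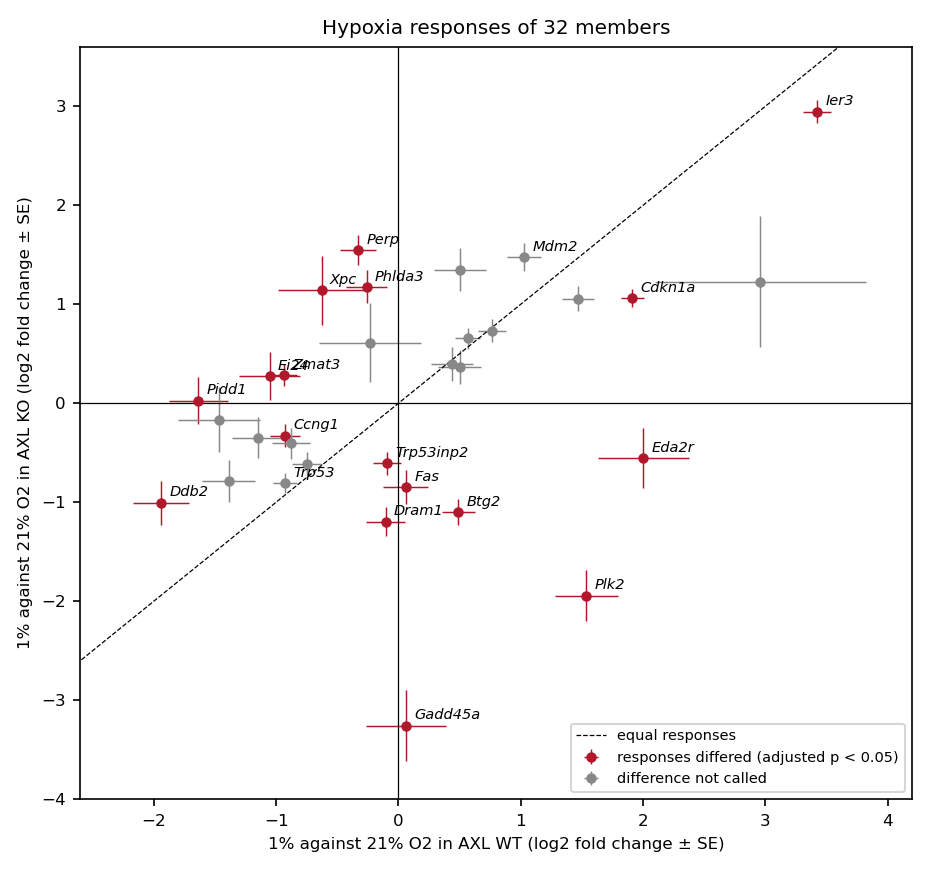
Hypoxia response of each of the 32 members, as the log2 fold change of 1% against 21% O2, in AXL KO (vertical axis) and in AXL WT (horizontal axis), with standard errors as bars. The dashed line marks equal responses, and red points are the 17 members whose responses differed at an adjusted p under 0.05. Perp, Phlda3 and Xpc lie above the line and Gadd45a, Plk2, Eda2r, Btg2, Dram1 and Fas below it.

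The wider pathway was described by 3 lists of non-members. Of 31 other p53-induced genes 29 were tested. In AXL KO against AXL WT, 17 were higher and 4 lower in hypoxia (72.4% called, against 63.0% of all genes, median log2 fold change 0.74), and 13 were higher and 9 lower in normoxia (75.9% called, against 59.7% of all genes, median 0.12), where library size alone gave 8 higher and 12 lower. Rprm, which encodes the G2 arrest protein Reprimo, was at least 1316-fold higher in AXL KO in hypoxia, where AXL WT had no count, and in normoxia the summed counts gave a ratio of 3928 (95% interval 705 to 155200, counting error only). Psrc1, a microtubule regulator, was higher in AXL KO in hypoxia (3.14 ± 0.21, adjusted p = 1.78e-07), and Gdf15, a stress cytokine, in normoxia (5.34 ± 0.41, adjusted p = 4.86e-07). The most negative calls were Trp53cor1 (lincRNA-p21, −1.65 ± 0.46, adjusted p = 0.0078) and Fbxw7, a ubiquitin ligase subunit (−0.47 ± 0.11, adjusted p = 0.00329), in hypoxia, and the mitotic genes Gtse1 (−2.78 ± 0.20, adjusted p = 2.3e-07) and Ckap2 (−1.44 ± 0.25, adjusted p = 0.000406) in normoxia.

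In hypoxia against normoxia, 9 of the 29 other p53-induced genes were higher and 8 lower in AXL KO (58.6% called, against 58.0% of all genes, 7 and 10 with library size alone). In AXL WT 4 were higher and 11 lower (51.7%, against 59.8% of all genes, 3 and 18 with library size alone). Sesn1, a stress sensor upstream of mTORC1, rose in AXL KO (2.61 ± 0.13, adjusted p = 6.95e-08) and in AXL WT (2.81 ± 0.13, adjusted p = 3.97e-08). Trp53cor1 (−2.46 ± 0.45, adjusted p = 0.000653) and Gdf15 (−1.73 ± 0.32, adjusted p = 0.000685) fell most in AXL KO, and Psrc1 (−3.01 ± 0.21, adjusted p = 4.43e-07) and Gtse1 (−2.76 ± 0.20, adjusted p = 5.59e-07) in AXL WT. The responses differed for 14 of 29 (48.3%, against 28.8% of all genes), 9 higher and 5 lower in AXL KO (12 and 4 with library size alone), with the largest differences for Psrc1 (3.62), Gtse1 (2.93), Gdf15 (−2.70) and Ephx1, an epoxide hydrolase (−1.40).

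Of 16 regulators and relatives of p53, 4 were higher and 4 lower in AXL KO in hypoxia (1 and 5 with library size alone) and 2 were higher and 6 lower in normoxia (1 and 8 with library size alone). The 8 called at each oxygen level compare with 63.0% of all genes in hypoxia and 59.7% in normoxia. Beside Cdkn2a, the largest calls were Hipk2, a kinase of p53 (0.95 ± 0.17, adjusted p = 0.00039), Pml, the scaffold of nuclear bodies (0.57 ± 0.19, adjusted p = 0.0198), and Ppm1d, the WIP1 phosphatase that turns p53 signalling off (−2.44 ± 0.48, adjusted p = 0.000913), in hypoxia. In normoxia they were the p53 relative Trp63 (9.04 ± 0.61, adjusted p = 1.72e-07), Hipk2 (0.49 ± 0.17, adjusted p = 0.0235) and the checkpoint kinase gene Chek1 (−3.03 ± 0.23, adjusted p = 3.92e-07). Trp63 stood at 14.1, 12.7 and 14.8 CPM in AXL KO normoxia and at no more than 0.0744 CPM in any other library. It fell in hypoxia in AXL KO (−7.78 ± 0.57, adjusted p = 9.17e-07), where Hipk2 (2.58 ± 0.17, adjusted p = 5.37e-07) and the p53 deubiquitinase gene Usp7 (0.81 ± 0.12, adjusted p = 0.000117) rose and Trp53bp1, a damage response scaffold (−0.73 ± 0.085, adjusted p = 2.5e-05), fell. In AXL WT, Ppm1d (3.16 ± 0.50, adjusted p = 0.0002) and Cdkn2a (2.13 ± 0.29, adjusted p = 0.00037) rose, and Chek1 (−2.83 ± 0.23, adjusted p = 1.24e-06) and Chek2 (−1.45 ± 0.18, adjusted p = 3.13e-05) fell. Ppm1d stood at 27.4, 25.9 and 26.1 CPM in AXL KO hypoxia, against 56.1, 298 and 77 CPM in AXL WT hypoxia, where replicate 2 was far above the others. Hypoxia responses were called for 5 of 16 in AXL KO (31.2%, against 58.0% of all genes, 3 higher and 2 lower) and 13 of 16 in AXL WT (81.2%, against 59.8%, 7 and 6). Their difference was called for 7 (43.8%, against 28.8%, 4 higher and 3 lower), with Chek1 (3.12) and the damage kinase gene Atr (1.21) highest and Trp63 (−8.60) and Ppm1d (−2.33) lowest.

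The 17 cell-cycle genes that p53 turns down through p21 were all lower in AXL KO in normoxia, beside the higher Cdkn1a there. Their median log2 fold change was −2.05, and 30.0% of all genes were lower. All 17 were also lower in hypoxia against normoxia in AXL WT (against 30.7% of all genes, median −2.35), again beside a rise of Cdkn1a. In AXL KO, hypoxia left 5 higher and 2 lower (41.2% called, against 58.0% of all genes, median 0.17). Library size alone gave 4 and 3, and Cdkn1a rose in AXL KO too. The difference of responses was above 0 and called for 17 of 17 (against 13.5% of all genes, median 2.31). In hypoxia 9 were higher and 3 lower in AXL KO than in AXL WT (70.6% called, against 63.0% of all genes, median 0.58). A voom weight for each group gave 3 and 1. The transcription factor gene Mybl2 (−3.78 ± 0.23, adjusted p = 7.99e-08) and the replication helicase gene Mcm5 (−3.51 ± 0.26, adjusted p = 3.94e-07) were the lowest in AXL KO in normoxia. In hypoxia the mitotic genes Aurkb (1.49 ± 0.30, adjusted p = 0.0011) and Ccnb1 (1.41 ± 0.28, adjusted p = 0.000917) were highest in AXL KO, and Mcm5 (−1.86 ± 0.25, adjusted p = 5.51e-05) and Rrm2, the cell-cycle subunit of ribonucleotide reductase (−0.90 ± 0.23, adjusted p = 0.00514), were lowest. Within AXL KO, Aurkb (1.21 ± 0.30, adjusted p = 0.00449) and Bub1, a spindle checkpoint kinase (1.14 ± 0.17, adjusted p = 0.000143), rose most and Rrm2 (−2.50 ± 0.24, adjusted p = 5.76e-06) and Mcm5 (−0.70 ± 0.25, adjusted p = 0.0278) fell most. Within AXL WT, Rrm2 (−3.65 ± 0.25, adjusted p = 3.96e-07) and Ccna2, cyclin A2 (−3.60 ± 0.30, adjusted p = 1.8e-06), fell most. The largest differences of responses were those of Aurkb (3.54) and Mybl2 (3.53). Whether the level of Cdkn1a has a part in these differences was not tested.

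**Figure D5:**
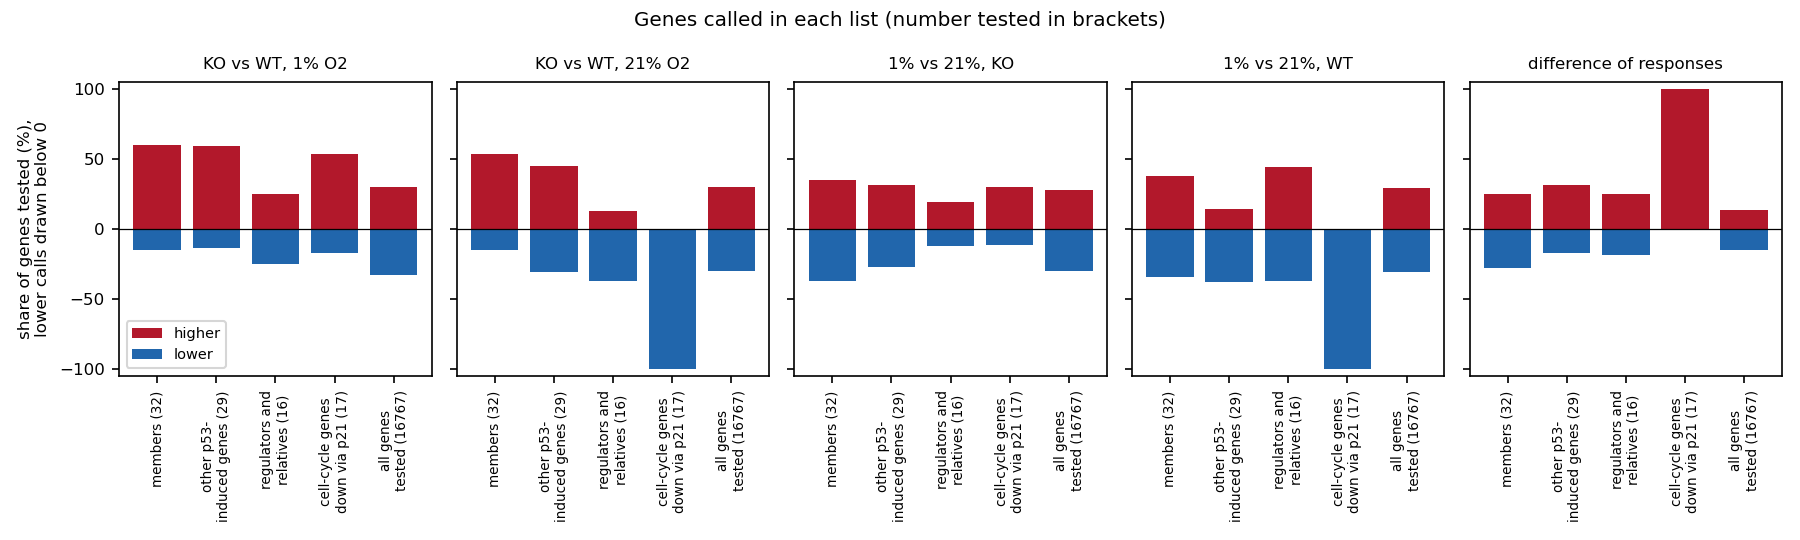
Share of the genes tested in each list that were called higher (red, above 0) or lower (blue, drawn below 0) at an adjusted p under 0.05, for the 32 members, 29 other p53-induced genes, 16 regulators and relatives, 17 cell-cycle genes and all 16767 genes, in each of the 5 contrasts. The cell-cycle list is called lower in full in AXL KO in 21% O2 and in AXL WT in 1% against 21% O2.

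Markers of other cell types moved with the groups in part. Fibroblast markers (5 genes, 4 of them above 1 CPM in AXL KO normoxia and Lum near 0 everywhere) summed to 58.7 to 65.4 CPM in AXL KO hypoxia and 186 to 201 CPM in AXL KO normoxia, against 72.1 to 96.1 CPM in AXL WT hypoxia, with 66.1 to 72.6 CPM in AXL WT normoxia. AXL KO normoxia, the group with the most Gadd45a, Btg2 and Dram1 RNA, was also the highest in this sum, and the part of these markers in the member results was not tested. The 5 leukocyte markers summed to 49.0 to 55.4 CPM in AXL KO hypoxia and 59.6 to 85.2 CPM in AXL KO normoxia, against 6.23 to 9.39 CPM in AXL WT hypoxia, with 10.7 to 12.2 CPM in AXL WT normoxia. Nearly all of that sum was Cd68, a lysosomal gene, while Ptprc, Cd3e, Adgre1 and Itgam stayed at or under 0.469 CPM in every library. The 4 endothelial markers reached 17.4 CPM in AXL KO hypoxia, nearly all Kdr, and at most 4.35 CPM elsewhere, and Pecam1, Cdh5 and Tek stayed below 1 CPM. The adipocyte markers summed to 4.60 to 4.61 CPM in AXL KO hypoxia and 8.65 to 13.6 CPM in AXL KO normoxia, against 8.55 to 27.9 CPM in AXL WT hypoxia, with 33.8 to 41.8 CPM in AXL WT normoxia, nearly all Fabp4.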

How the data were processed

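RNA was sequenced from 12 libraries in 4 groups of 3. Per the submitters' processing notes, the tools were FastQC 0.11.5, STAR 2.5.1b, featureCounts 1.4.6 and DESeq2 1.12.3 and the build GRCm38. Per the file headers, the counter was featureCounts 1.6.0 with Ensembl release 93, reverse stranded, so 6 members that overlap exons on the opposite strand were kept. The deposited values are raw counts per gene. Symbols were matched by gene ID in a GENCODE M21 table.

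Counts were fitted in edgeR 4.0.16 (R 4.3.3) by quasi-likelihood with TMM scaling, 1 mean per group and 8 residual degrees of freedom. The filter filterByExpr kept 16767 genes and removed 37465. Benjamini-Hochberg adjustment ran over all genes tested, with calls under 0.05, and a standard error was taken as the absolute log2 fold change divided by √F. CPM errors are the SD of 3 libraries. Floors and ratio intervals cover counting error only. The members and lists were chosen with earlier results of these data known. Values in every library are given for a fixed set of members and for the 4 smallest adjusted p of each contrast, and from other lists the 2 largest changes called in each direction. A non-member that this rule names is not reported here. Alternatives were scaling by RLE or by library size alone, testing every gene or only those with 5 CPM in 3 libraries, DESeq2 1.42.0, voom (limma 3.58.1) with group weights, a replicate block, the compared groups alone, each library left out and AXL WT hypoxia replicates 2 and 3 left out. Figures were drawn with matplotlib 3.10.9. Libraries of a group differed by more than sampling noise (chi-square per degree of freedom 4.58 to 362), so none was counted as a repeat.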

Additional observations from a re-analysis of the deposited data

Results flagged for a closer look

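The hypoxia responses of 17 members differed between the genotypes in a test of the difference itself (interaction, adjusted p under 0.05), which set them apart for a closer look. Values are differences of log2 fold changes, AXL KO minus AXL WT, with the response of each genotype in brackets. Responses were lower in AXL KO for Plk2, −3.48 ± 0.37 (AXL KO −1.94, AXL WT 1.54), Gadd45a, −3.32 ± 0.47 (AXL KO −3.26, AXL WT 0.06), Eda2r, −2.55 ± 0.48 (AXL KO −0.55, AXL WT 2.00), Btg2, −1.59 ± 0.19 (AXL KO −1.10, AXL WT 0.49) and Dram1, −1.09 ± 0.22 (AXL KO −1.20, AXL WT −0.10). They were also lower for Fas, −0.91 ± 0.25 (AXL KO −0.85, AXL WT 0.06), Cdkn1a, −0.85 ± 0.13 (AXL KO 1.06, AXL WT 1.91), Trp53inp2, −0.51 ± 0.16 (AXL KO −0.60, AXL WT −0.09) and Ier3, −0.48 ± 0.15 (AXL KO 2.95, AXL WT 3.42). Responses were higher in AXL KO for Perp, 1.88 ± 0.21 (AXL KO 1.55, AXL WT −0.33), Xpc, 1.77 ± 0.50 (AXL KO 1.14, AXL WT −0.63), Pidd1, 1.66 ± 0.34 (AXL KO 0.03, AXL WT −1.64) and Phlda3, 1.44 ± 0.23 (AXL KO 1.18, AXL WT −0.26). They were also higher for Ei24, 1.33 ± 0.35 (AXL KO 0.28, AXL WT −1.05), Zmat3, 1.22 ± 0.16 (AXL KO 0.28, AXL WT −0.94), Ddb2, 0.94 ± 0.31 (AXL KO −1.0, AXL WT −1.94) and Ccng1, 0.60 ± 0.17 (AXL KO −0.33, AXL WT −0.93). The calls of Ccng1, Ddb2, Fas, Ier3, Trp53inp2 and Xpc were lost under at least 1 alternative, and the other 11 held under every alternative run.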

How the results depend on the processing

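Over 160 member values (32 members in 5 contrasts) and 21 alternative settings, 3317 alternative values were obtained. No called value changed sign, 3037 kept their side of the threshold (55 of them crossed 0 without a call on either side), 166 lost a call and 114 gained one. The calls of 20 of 24 members for AXL KO against AXL WT in hypoxia, 17 of 22 in normoxia, 19 of 23 for hypoxia in AXL KO, 19 of 23 for hypoxia in AXL WT and 11 of 17 for the difference of responses held under every alternative. Leaving out single libraries gave 9688 to 12564, 8873 to 11964, 8288 to 11499, 9013 to 11720 and 3582 to 8417 genes called in these contrasts, and 21 to 26, 18 to 25, 19 to 28, 21 to 24 and 12 to 23 members. The 8417 genes called for the difference of responses came without AXL WT hypoxia replicate 1, against 4830 with all libraries. Library size alone moved the all-gene median (log2) to −0.21, −0.29, −0.23, −0.32 and 0.06 in the 5 contrasts, and the split of all genes to 3717 higher and 6667 lower in AXL KO in normoxia, and in hypoxia to 3516 and 6251 in AXL KO and 3473 and 7001 in AXL WT. Replicate numbers are shared by the groups. Same-numbered libraries deviated together weakly at most (r −0.0645 to 0.142 over 18 pairs, 2 of them over 0.1, against −0.264 to 0.221 for other numbers). The samples were therefore not treated as pairs, though this check cannot exclude a shared origin of same-numbered libraries. With the number as a replicate block the member counts were 19 higher and 5 lower, 16 and 5, 12 and 12, 12 and 11, and 9 and 8. The block ended the calls of Polk for AXL KO against AXL WT in normoxia and of Ddb2 and Trp53inp2 for the difference of responses, and added Mdm4 for hypoxia in AXL KO and Plk3 and Trp53inp1 for the difference. The interaction could not be fitted with the compared groups alone. Depth limits Trp73, Pmaip1 and Sfn.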

Other observations

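Per gene length, the most abundant members were Ier3 (637 ± 14.7 CPM per kb, SD, n = 3), Perp (618 ± 13.7), Cdkn1a (196 ± 14.1) and Phlda3 (139.6 ± 11.4) in AXL KO hypoxia. In AXL KO normoxia they were Perp (211 ± 27.6 CPM per kb), Cdkn1a (94.2 ± 1.78) and Ier3 (82.7 ± 6.12). Ier3 led AXL WT hypoxia (1557 ± 207 CPM per kb) and AXL WT normoxia (145 ± 10.004), followed by Cdkn1a in hypoxia (164 ± 17.2) and by Phlda3 (70.3 ± 4.78), Perp (59.2 ± 3.69), Cdkn1a (43.6 ± 1.89) and Trp53 (43.4 ± 0.746) in normoxia. The levels of Cdkn1a and Trp53 in AXL WT normoxia differed by less than their spread.

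Of the 32 members tested, 14 had their highest group mean in AXL KO hypoxia, 10 in AXL KO normoxia, 3 in AXL WT hypoxia and 5 in AXL WT normoxia, and 3, 2, 16 and 11 had their lowest mean in these groups in the same order. For all genes tested each group held 22.6% to 28.9% of the highest or of the lowest means.

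Among the non-members, Ep300, a p53 coactivator gene, stood at 123, 130.2 and 126 CPM in AXL KO hypoxia, against 208, 497 and 238 CPM in AXL WT hypoxia. Its AXL WT hypoxia replicate 2 was far above the other libraries. The cause was not tested.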
